A study of Mus musculus with 16 samples.

Results

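The enzymes that build triglyceride in the liver were followed here through the mRNA of 9 genes, Gpam, Agpat2, Agpat3, Lpin1, Lpin2, Dgat1, Dgat2, Mogat1 and Pnpla3. They were taken by gene symbol from a table of 12618 genes, and all 9 were in it. The table describes mouse livers in 2 groups, with 8 libraries labelled Cyp7a1 CRISPR and 8 labelled control CRISPR, and both groups ate a Western diet for 8 weeks. Cyp7a1 encodes the rate-limiting enzyme of bile acid synthesis from cholesterol. The labels used here state neither age, sex, strain, guide nor the way CRISPR was delivered, and they leave unsaid whether every library came from its own animal. P-values therefore refer to the spread among libraries, which may be technical. Libraries are called by their group and number, for example Cyp7a1 17.

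Liver triglyceride is assembled mainly by the glycerol phosphate pathway. Glycerol 3-phosphate takes up an acyl chain, becoming lysophosphatidic acid, and a further chain turns this into phosphatidic acid. Lipins then remove the phosphate, and diacylglycerol acyltransferases attach the last acyl chain. Diacylglycerol can also come from monoacylglycerol, a route known best from the intestine. Phosphatidic acid and diacylglycerol feed phospholipid synthesis as well. The factor SREBP-1c, from Srebf1, and ChREBP, from Mlxipl, are known activators of fatty acid synthesis genes and of several acyltransferase genes in liver.

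As recovered from the deposited values, 13.8 to 27.4 M reads in each of the 16 libraries fell on the genes of the table. Cyp7a1 mRNA itself had 3069, 4892 and 5873 normalized counts (lowest, median and highest) in the Cyp7a1-labelled libraries, against 2148, 3281 and 5642 in the Control libraries. It was not lower under its own label, with a log2 fold change of 0.43 ± 0.20 (SE, 8 libraries each) and an adjusted p of 0.227 in limma. The labels used here do not say which part of the gene was edited or whether its mRNA should fall, so the groups are called by their labels throughout. Of the liver marker lists examined, 7 of 8 hepatocyte markers were in the table. No marker of any cell type was past an adjusted p of 0.05 (limma), beside 6.12% of all genes. At that share few calls fall on lists this short, so the count of 0 does not show that cell composition was alike. In bulk tissue, fewer cells of a type and less RNA per cell cannot be told apart.

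At an adjusted p under 0.05, 387 genes of the whole table rose in the Cyp7a1-labelled livers and 385 fell (limma on log2(value + 1), Benjamini-Hochberg over 12617 genes), 3.07% and 3.05% of the genes, or 6.12% in either direction. Of the 9 triglyceride synthesis genes, 2 were higher, Lpin1 and Lpin2, and 0 were lower. At an unadjusted p under 0.05 the number was 3, the third being Agpat2. In all, 5 members had a fold change above 0 and 4 below 0, with a median log2 fold change of 0.04, beside 0.0034 for all genes. In 0 of the 9 did the groups separate without overlap, a pattern shown by 131 genes, 1.04% of the table. Both genes past the threshold encode phosphatidate phosphatases, and no acyltransferase among the members passed. That split holds for this list alone. Outside it the acyltransferase genes Agpat5 and Mogat2 passed (adjusted p = 0.0405 and 0.0423), and the third lipin gene, Lpin3, did not (0.911, all limma).

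**Figure D1:**
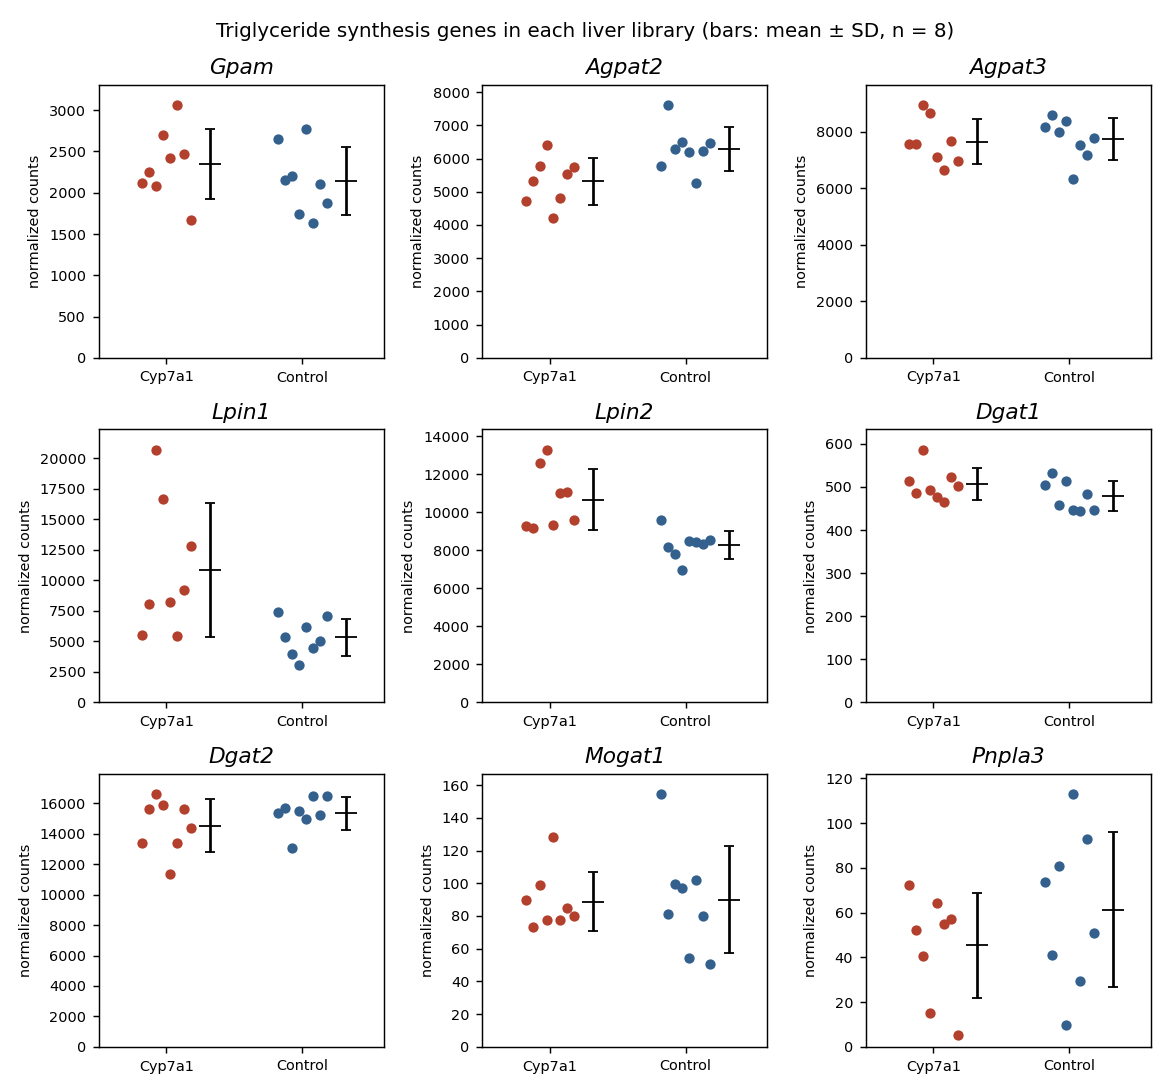
Normalized counts of the 9 genes in each liver library (points), with the mean and SD of 8 libraries beside them; the Cyp7a1-labelled group is left of Control and each axis starts at 0. Lpin1 and Lpin2 sit higher in the Cyp7a1-labelled group, with Lpin1 reaching 20687 counts in 1 library, and every panel shows overlap between the groups.

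The lipins dephosphorylate phosphatidic acid to diacylglycerol, and lipin 1 is also known to act in the nucleus with PGC-1α, from Ppargc1a, on fat oxidation genes. Lpin1 lies on chr12:16535669-16610966 (minus strand) and Lpin2 on chr17:71182560-71249817 (plus strand) of GRCm38. The 300 bases around an annotated start are shown because these genes are the members that moved. The sequences are RefSeq's (GRCm38.p6), run 5′ to 3′ on the strand of the gene, and hold 250 bases before the start and 50 from it; capitals mark a motif.
Lpin1, chr12:16610917-16611216, minus strand: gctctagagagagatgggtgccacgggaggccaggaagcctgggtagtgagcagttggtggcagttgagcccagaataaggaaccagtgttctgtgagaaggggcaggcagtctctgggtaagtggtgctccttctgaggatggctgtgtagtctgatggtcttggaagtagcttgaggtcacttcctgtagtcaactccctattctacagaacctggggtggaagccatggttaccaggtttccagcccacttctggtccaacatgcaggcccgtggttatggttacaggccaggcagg
Lpin2, first of 3 starts, chr17:71183282-71183581, plus strand: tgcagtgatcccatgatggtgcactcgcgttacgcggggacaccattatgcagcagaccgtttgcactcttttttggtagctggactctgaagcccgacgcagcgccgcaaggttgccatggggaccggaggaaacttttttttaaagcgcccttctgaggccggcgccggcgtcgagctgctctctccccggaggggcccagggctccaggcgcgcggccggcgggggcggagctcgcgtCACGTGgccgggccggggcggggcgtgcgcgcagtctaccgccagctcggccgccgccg
The motifs searched on both strands were CACGTG (E-box), TCACNCCAC (a sterol regulatory element) and CCAAT (the NF-Y motif). They occur in 7.15%, 1.24% and 37.4% of the 32851 mouse promoters of the same length. The Lpin1 window held none of the 3 motifs, and the Lpin2 window shown held 1 CACGTG, beginning 9 bases before the start. The last Lpin2 start, chr17:71204404-71204703, held 3 CCAAT, all on the opposite strand. A match describes letters and not a bound factor. Among the other members with an entry, CCAAT occurred 1 time at a Gpam start, at Mogat1 and at Pnpla3. No member with an entry held TCACNCCAC. Dgat1 and Dgat2 had no entry and were not searched.

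Lpin1 had 5453, 8687 and 20687 normalized counts (lowest, median and highest) in the Cyp7a1-labelled livers, against 3031, 5193 and 7411 in Control livers. All 8 Cyp7a1-labelled libraries were above the Control mean and 6 were above every Control library, but the groups overlapped, with Cyp7a1 2 (5511) and Cyp7a1 26 (5453) inside the Control range. The means were 10812 ± 5467 and 5315 ± 1519 (SD, n = 8 each). The log2 fold change was 0.93 ± 0.26 (SE), a fold of 1.90 with a 95% interval of 1.30 to 2.78, and the adjusted p was 0.0433 (limma). It stood among 79 of 12617 genes that rose at least that far. The call was near the threshold. It ended when any 1 of 10 libraries was left out, Cyp7a1 5, 17, 19, 28 or 36 or Control 12, 13, 16, 25 or 35, with adjusted p between 0.0508 and 0.0866, while the log2 fold change over all 16 such fits stayed between 0.77 and 1.05.

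Lpin1 was also more uneven than Lpin2 among libraries of 1 group. Its coefficient of variation was 50.6% in the Cyp7a1-labelled livers and 28.6% in Control livers, and its highest library stood 3.79 and 2.45 times above its lowest in those groups. Cyp7a1 17 (20687), Cyp7a1 19 (16636) and Cyp7a1 36 (12786) held the highest levels. For Lpin2 the coefficients were 14.9% and 8.89%.

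Lpin2, the lipin best known from liver, had 9200, 10320 and 13299 normalized counts in the Cyp7a1-labelled livers, against 6971, 8390 and 9585 in Control livers. Of the Control libraries 7 were below the lowest Cyp7a1-labelled one, and Control 7 alone reached into that range. Means were 10674 ± 1595 and 8299 ± 738 (SD, n = 8 each). The rise was smaller than that of Lpin1 but steadier, at a log2 fold change of 0.35 ± 0.08 (SE), a fold of 1.28 with a 95% interval of 1.13 to 1.44 and an adjusted p of 0.0182 (limma). It stayed past the threshold under every alternative tried, including each library left out in turn (adjusted p 0.0119 to 0.0388). Lpin2 overlaps the noncoding gene Gm26561 on its own strand, and reads shared with it cannot be told apart here.

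Within the groups Lpin1 and Lpin2 varied together. After centring on the group means, Pearson's r over the 16 libraries was 0.72 and Spearman's rho 0.65, and r was 0.65 within the Cyp7a1-labelled livers and 0.90 within Control livers. In the Cyp7a1-labelled livers this was not particular to the pair. There r of Lpin1 was 0.76 with Agpat2 and 0.74 with Agpat3, and r of Lpin2 was 0.67 and 0.68. In Control livers these r were -0.04 and -0.26 for Lpin1 and -0.36 and -0.24 for Lpin2. These are descriptions, and the libraries share one normalization. Cyp7a1 17 and Cyp7a1 19 were the highest for both lipin genes, and Control 16 was the lowest for both. The third family member, Lpin3, had a log2 fold change of 0.03 ± 0.09 (adjusted p = 0.911, limma). Ctdnep1 and Cnep1r1, which encode the catalytic and the regulatory subunit of a phosphatase that dephosphorylates lipins, had log2 fold changes of -0.07 ± 0.04 and 0.04 ± 0.10, with adjusted p of 0.415 and 0.876 (limma).

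**Figure D2:**
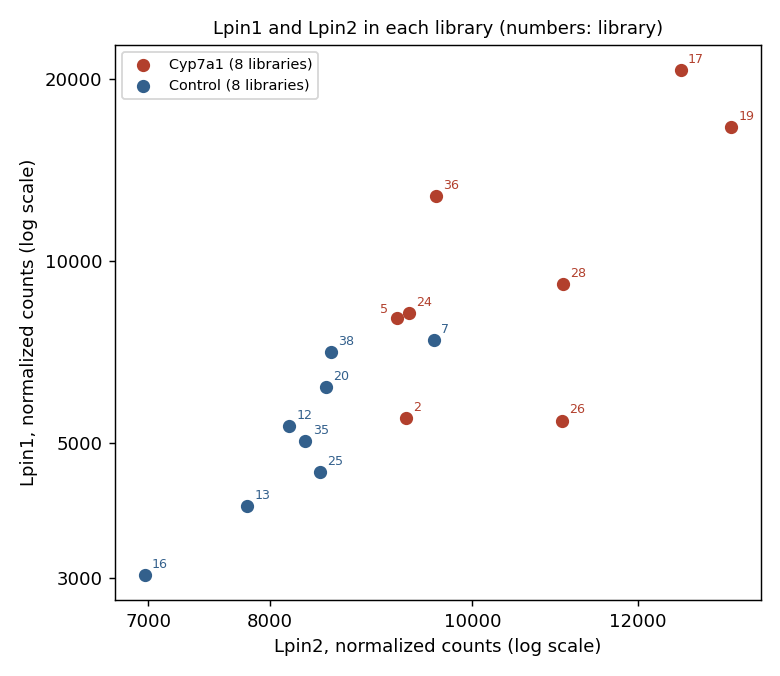
Lpin1 against Lpin2 in normalized counts, both axes on a log scale, 1 point per library with its number. Red points are the 8 Cyp7a1-labelled libraries and blue points the 8 Control libraries. Cyp7a1 17 and 19 lie farthest to the upper right and Control 16 to the lower left; the groups overlap along both axes, with Cyp7a1 2 and 26 inside the Control range of Lpin1 and Control 7 inside the Cyp7a1-labelled range of both genes.

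The first acylation is carried by Gpam, the mitochondrial glycerol-3-phosphate acyltransferase (chr19:55067268-55127238, minus strand). It had 1669, 2339 and 3061 normalized counts in the Cyp7a1-labelled livers, against 1634, 2129 and 2772 in Control livers. The ranges nearly coincided. The log2 fold change was 0.13 ± 0.12 (95% interval -0.12 to 0.39, adjusted p = 0.592, limma).

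Agpat2 and Agpat3 encode lysophosphatidic acid acyltransferases; loss of AGPAT2 causes congenital lipodystrophy in humans. Agpat2 (chr2:26593057-26604417, minus strand) had 4207, 5431 and 6411 normalized counts in the Cyp7a1-labelled livers, against 5270, 6258 and 7607 in Control livers. It was below the Control mean in 7 of the 8 Cyp7a1-labelled libraries, and 3 of these were below every Control library. Its log2 fold change was -0.25 ± 0.08 (95% interval -0.42 to -0.07), which missed the threshold at an adjusted p of 0.0861 (limma) and crossed it with quantile normalization (0.0493) or without Cyp7a1 19 (0.0495). Its last 64 bases overlap Egfl7 on the opposite strand, and the strand setting of the counting is not given in the sources used here. Egfl7 had 354 ± 48.6 normalized counts in the Cyp7a1-labelled livers and 364 ± 50.8 in Control livers (SD, n = 8 each), a log2 fold change of -0.04 ± 0.10 (adjusted p = 0.864, limma). Agpat3 (chr10:78269178-78352489, minus strand) had 6667, 7575 and 8946 normalized counts, against 6316, 7892 and 8596 in Control livers, and its log2 fold change of -0.02 ± 0.07 had a 95% interval of -0.17 to 0.13 (adjusted p = 0.918, limma).

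The last step is shared by 2 unrelated enzymes, DGAT1 and DGAT2. Dgat2 (chr7:99153658-99182719, minus strand) had 11387, 14995 and 16601 normalized counts in the Cyp7a1-labelled livers, against 13038, 15415 and 16485 in Control livers, with a log2 fold change of -0.08 ± 0.07 (95% interval -0.24 to 0.07, adjusted p = 0.580, limma). Dgat1 (chr15:76502015-76511953, minus strand) had 466, 499 and 587 normalized counts, against 444, 471 and 532 in Control livers. Its log2 fold change was 0.08 ± 0.06 (95% interval -0.03 to 0.20, adjusted p = 0.439, limma). Dgat1 was among the steadiest of the members, with coefficients of variation of 7.42% and 7.26%. For both genes the interval lay below the estimate for Lpin2 (0.35). The Dgat1 interval overlapped that of Lpin2 (0.18 to 0.53), and differences between these genes were not tested.

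Mogat1, a monoacylglycerol acyltransferase that supplies diacylglycerol by the other route, was scarce, and it overlaps BC035947 on the opposite strand. It had 73.3, 82.3 and 128 normalized counts in the Cyp7a1-labelled livers (71 to 154 reads), against 50.7, 89.2 and 154 in Control livers (33 to 201 reads). The log2 fold change was 0.04 ± 0.19 (95% interval -0.36 to 0.43, adjusted p = 0.939, limma), and its sign turned under several alternatives, down to -0.13 without Control 20 and Cyp7a1 24. Pnpla3, a lipid droplet protein whose variants are tied to fatty liver in humans, was lower still. Pnpla3 overlaps Gm49513 and Mir6392 on its own strand and Gm20369 on the opposite strand, and shared reads cannot be told apart here. It had 5.49, 53.7 and 72.5 normalized counts in the Cyp7a1-labelled livers, against 9.83, 62.2 and 113 in Control livers, so that levels spread 13.2 times and 11.5 times between the lowest and the highest library. The lowest counts rest on about 7 reads in Cyp7a1 36 and about 11 reads in Control 16. With a log2 fold change of -0.46 ± 0.52 and a 95% interval of -1.55 to 0.64 (adjusted p = 0.687, limma), a difference between the groups was not detectable in Pnpla3 at this spread. Single libraries moved this log2 fold change to -0.099 (without Cyp7a1 36), -0.29 (without Cyp7a1 19 or Control 20) or -0.78 (without Control 16), and array weights gave -0.20, none with an adjusted p under 0.402 (limma).

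**Figure D3:**
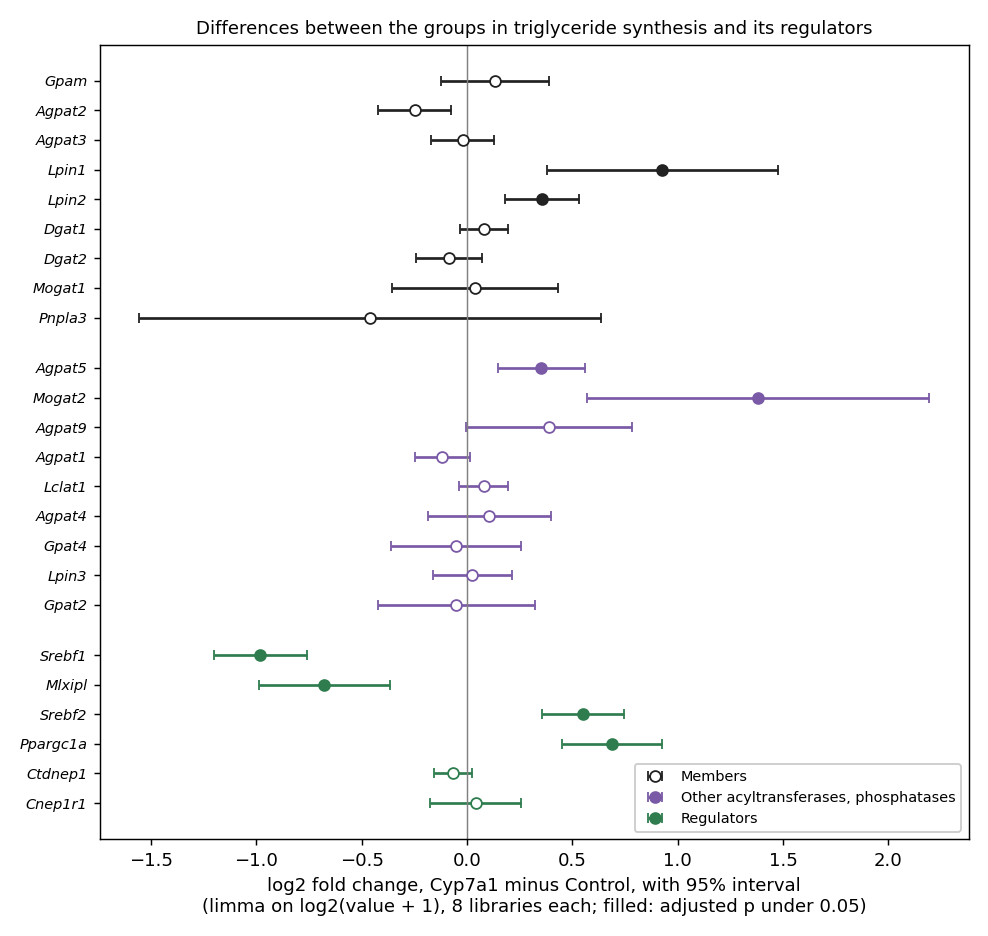
Log2 fold change, Cyp7a1-labelled minus Control, with its 95% interval from limma, for the 9 members (black), the other acyltransferases and phosphatases of the pathway (purple) and 6 regulators (green); filled points have an adjusted p under 0.05. Lpin1 and Lpin2 are the filled points among the members, at 0.93 and 0.35, and Srebf1 at -0.98 lies farthest to the left of all genes drawn.

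Levels between genes were compared per kilobase of exon (all exons of a gene merged). In the Cyp7a1-labelled livers Dgat2 was the highest at 4715 normalized counts per kb, ahead of Agpat2 at 2495, Lpin1 at 1119, Agpat3 at 982, Lpin2 at 873, Gpam at 352, Dgat1 at 166, Mogat1 at 57.0 and Pnpla3 at 29.3 (means of 8). In Control livers the means per kb were 4975 for Dgat2, 2953 for Agpat2, 994 for Agpat3, 678 for Lpin2, 550 for Lpin1, 321 for Gpam, 157 for Dgat1, 57.7 for Mogat1 and 39.7 for Pnpla3. Lpin1 thus stood behind Dgat2 and Agpat2 in the Cyp7a1-labelled livers and behind these, Agpat3 and Lpin2 in Control livers, and the order of the other members was the same in both groups.

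Neighbours in that order overlapped in places. Among Cyp7a1-labelled livers the ranges of Agpat2 and Lpin1, of Lpin1 and Agpat3, and of Agpat3 and Lpin2 overlapped, Lpin1 spanning 564 to 2140 normalized counts per kb. Among Control livers those of Lpin2 and Lpin1, of Lpin1 and Gpam, and of Mogat1 and Pnpla3 overlapped. Dgat2 did not overlap Agpat2 in either group.

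**Figure D4:**
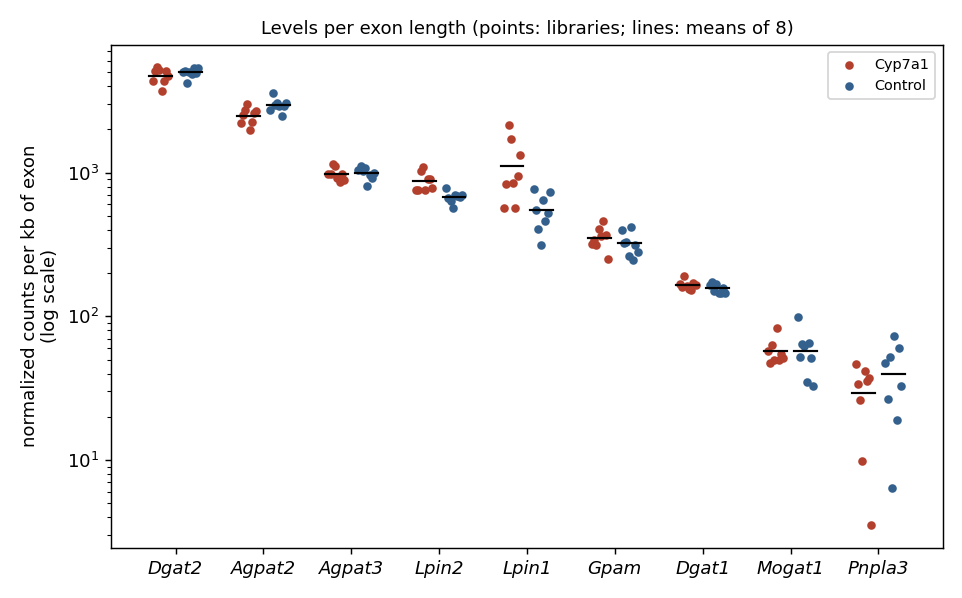
Normalized counts per kb of merged exon on a log scale for the 9 genes, ordered by their level in Control livers; points are libraries, Cyp7a1-labelled left of Control, and lines are means of 8. Dgat2 leads in both groups at 4715 and 4975, and Lpin1 is the gene whose place in the order differs.

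Ratios within a library need no scaling between libraries, and 3 were compared over all 12870 assignments of libraries to groups (exact permutation, two-sided). The log2 ratio of Lpin1 to Lpin2 averaged -0.12 ± 0.59 in the Cyp7a1-labelled livers and -0.69 ± 0.32 in Control livers (SD, n = 8 each), a difference of 0.57 with an exact p of 0.0315. The balance of the lipins thus stood nearer to Lpin1 in the Cyp7a1-labelled livers. For Gpam over Agpat2 the log2 ratio averaged -1.19 ± 0.36 and -1.57 ± 0.29, a difference of 0.38 (exact p = 0.0375). For Dgat2 over Dgat1 it averaged 4.83 ± 0.14 and 5.00 ± 0.15, a difference of -0.17 (exact p = 0.0407).

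All 3 ratios had an adjusted exact p of 0.0407 over the 3. The ratios of Lpin1 to Lpin2 and of Gpam to Agpat2 were higher in the Cyp7a1-labelled livers, and that of Dgat2 to Dgat1 was lower. The calls were fragile. Leaving out 1 library ended the call in 12 of 16 cases for the lipins (all but Cyp7a1 2, 5, 26 and Control 7), 13 of 16 for Gpam over Agpat2 (all but Cyp7a1 5, 36 and Control 7) and 14 of 16 for Dgat2 over Dgat1 (all but Cyp7a1 5 and Control 7), with adjusted exact p up to 0.0822 in each. Differences kept their signs, at 0.453 to 0.701, 0.304 to 0.466 and -0.19 to -0.13.

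Regulators of these genes were examined from a list of 21, of which 3 were higher and 3 lower, with 8 fold changes above 0 and a median of -0.06. Of all genes 3.07% were higher and 3.05% lower, and the groups did not overlap in 1.04%. Srebf1 had 4768, 5536 and 6138 normalized counts in the Cyp7a1-labelled livers, against 9089, 10124 and 17100 in Control livers, and the groups did not overlap. Its log2 fold change was -0.98 ± 0.10 (adjusted p = 3.23e-05, limma). Mlxipl averaged 6733 ± 1187 and 10945 ± 2891 (SD, n = 8 each), with a log2 fold change of -0.68 ± 0.15 and an adjusted p of 0.0118 (limma). Both lipogenic factors fell, and so did Insig2 (-0.57 ± 0.14, adjusted p = 0.0259, limma), which retains SREBP precursors in the endoplasmic reticulum.

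Ppargc1a averaged 167 ± 25.3 normalized counts in the Cyp7a1-labelled livers and 103 ± 17.5 in Control livers (SD, n = 8 each), a log2 fold change of 0.69 ± 0.11 (adjusted p = 0.00175, limma). Srebf2, the factor of cholesterol synthesis, averaged 1509 ± 219 and 1026 ± 128, a log2 fold change of 0.55 ± 0.09 (adjusted p = 0.00225, limma). The other gene that rose was Scap, the escort of SREBPs, at 0.26 ± 0.07 (adjusted p = 0.0311, limma). Among the members, only Lpin1 and Lpin2 passed the test in the same livers, both higher. Agpat2 was lower without passing, at -0.25 ± 0.08 (adjusted p = 0.0861, limma). A link between the group differences of the regulators and those of the members was not tested.

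Within each group of 8, the members were also set against Srebf1 and Mlxipl across libraries, 36 relations in all by exact permutation. None had an adjusted Pearson or Spearman p under 0.05; the lowest adjusted Pearson p was 0.217, and 4 Pearson and 1 Spearman p were under 0.05 before adjustment. Agpat3 had 3 of these 4 Pearson p. Its r with Srebf1 was -0.86 in the Cyp7a1-labelled livers (rho -0.79, exact p = 0.00766 and 0.0279) and -0.78 in Control livers (rho -0.38, exact p = 0.0405 and 0.360), and its r with Mlxipl in Control livers was -0.79 (rho -0.71, exact p = 0.0175 and 0.0576). Without the 2 libraries farthest from the regulator's median these r were -0.82, 0.13 and -0.63, so the Control relation with Srebf1 rests on Control 20 and Control 25. The remaining one was Mogat1 with Mlxipl in Control livers, at an r of -0.80 and -0.45 without 2 libraries. In 10 of the 36 relations r changed sign without the 2 farthest libraries, among them Gpam with Srebf1 in the Cyp7a1-labelled livers, at -0.22 with all 8 libraries and 0.86 without Cyp7a1 19 and 36. For Lpin1 and Srebf1, Pearson's r was -0.54 (exact p = 0.171) and Spearman's rho -0.45 (exact p = 0.267) in the Cyp7a1-labelled livers, and r was 0.36 (exact p = 0.389) and rho 0.48 (exact p = 0.243) in Control livers. Without the 2 libraries farthest from the Srebf1 median, r was -0.74 and 0.67. With 8 libraries a group these relations are loosely fixed, and whether they differ between the groups was not tested.

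The genes whose levels followed the lipins most closely within groups (Pearson's r over 16 libraries after centring on group means, genes with a mean of at least 50) were not lipid enzymes by name. For Lpin1 they were Setdb2 (0.86), Ddx24 (0.86) and Fbxw2 (0.84), whose own adjusted p between the groups were 0.991, 0.862 and 0.880 (limma). For Lpin2 they were Rad54l2 (0.86), Tmc7 (0.84) and Tbrg1 (0.81). Of these Tmc7 was higher, with 189 ± 74.6 normalized counts in the Cyp7a1-labelled livers and 110 ± 19.8 in Control livers (SD, n = 8 each), a log2 fold change of 0.71 ± 0.19 and an adjusted p of 0.0325 (limma). These genes are the highest of a search over the table and are given as a description.

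The other acyltransferases and phosphatases of the pathway made a list of 9, all in the table. Of these, 2 were higher and 0 lower (6 fold changes above 0, median 0.08), beside 3.07% and 3.05% of all genes. Agpat5, a further lysophosphatidic acid acyltransferase, averaged 202 ± 25.3 normalized counts in the Cyp7a1-labelled livers and 158 ± 24.8 in Control livers (SD, n = 8 each), a log2 fold change of 0.35 ± 0.10 (adjusted p = 0.0405, limma). Mogat2, the monoacylglycerol acyltransferase best known from intestine, averaged 36.3 ± 12.4 and 15.9 ± 11.9, a log2 fold change of 1.38 ± 0.39 (adjusted p = 0.0423, limma). Both calls ended in 11 of the 16 fits that left out 1 library, and with equal totals (adjusted p = 0.0839 for Agpat5 and 0.0578 for Mogat2), and that of Mogat2 in edgeR as well (0.0752). Enterocyte markers Vil1, Fabp6, Alpi, Sis and Lct were not among the table's rows. The lowest gene mean in the table was 13.3 normalized counts, so a missing row does not show that the mRNA was absent. The endoplasmic reticulum counterparts of Gpam had log2 fold changes of 0.39 ± 0.19 for Gpat3, listed as Agpat9 (adjusted p = 0.247), and -0.05 for Gpat4 (adjusted p = 0.890, both limma).

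Substrates for the pathway come from glycerol 3-phosphate and acyl-CoA supply. Of 7 glycerol 3-phosphate genes in the table, of 9 listed, 0 passed in either direction (5 fold changes above 0, median 0.08). Those with the smallest p were Gk, glycerol kinase, with 2521 ± 310 normalized counts in the Cyp7a1-labelled livers and 2059 ± 337 in Control livers (SD, n = 8 each; log2 fold change 0.30 ± 0.10, adjusted p = 0.0867), and Pck1, the glyceroneogenic carboxykinase (0.32 ± 0.13, adjusted p = 0.181, both limma). Of 11 acyl-CoA supply genes, 2 were higher and 0 lower (7 above 0, median 0.04), beside 3.07% and 3.05% of all genes. In 1.04% of all genes the groups did not overlap. Both higher genes encode acyl-CoA synthetases, as do most genes of that list. Acsl4, which favours arachidonate, averaged 1010 ± 97.0 and 622 ± 111, without overlap and with a log2 fold change of 0.71 ± 0.10 (adjusted p = 0.000403, limma). Acsl3, a lipid droplet synthetase, averaged 600 ± 146 and 414 ± 62.9, with a log2 fold change of 0.51 ± 0.13 (adjusted p = 0.0289, limma). The Acsl3 call ended without Cyp7a1 26 or 28 or Control 12, 16 or 38 (adjusted p up to 0.0618) and with equal totals (0.0522).

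Phosphatidic acid and diacylglycerol leave the pathway through phospholipid synthesis. Of 15 genes of those branches in the table, of 16 listed, 1 was higher and 1 lower (7 above 0, median -0.01). Of all genes 3.07% were higher and 3.05% lower, and 1.04% did not overlap between the groups. Pcyt1a, the rate-limiting enzyme of phosphatidylcholine synthesis from choline, averaged 3088 ± 293 normalized counts in the Cyp7a1-labelled livers and 2505 ± 120 in Control livers (SD, n = 8 each) and did not overlap between them, with a log2 fold change of 0.30 ± 0.06 and an adjusted p of 0.00448 (limma). Ptdss1, phosphatidylserine synthase 1, averaged 921 ± 80.0 and 1075 ± 83.7, a log2 fold change of -0.22 ± 0.06 (adjusted p = 0.0311, limma), a call that ended without Cyp7a1 5, 26 or 36 or Control 12, 16 or 25 (adjusted p up to 0.0562).

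Triglyceride breakdown and secretion made a list of 11, of which 2 were higher and 0 lower (4 above 0, median -0.03), beside 3.07% and 3.05% of all genes. Pnpla2, adipose triglyceride lipase, averaged 4316 ± 574 normalized counts in the Cyp7a1-labelled livers and 3365 ± 629 in Control livers (SD, n = 8 each), a log2 fold change of 0.37 ± 0.11 (adjusted p = 0.0459, limma). That call ended in 11 of the 16 fits that left out 1 library, with equal totals (0.0573) and in edgeR (0.0518). Pnpla8, a calcium-independent phospholipase, averaged 2341 ± 84.1 and 2094 ± 115, a log2 fold change of 0.16 ± 0.04 (adjusted p = 0.0239, limma), and lost its call with equal totals (0.0929). These lists were chosen with earlier results of the same libraries known.

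Of 8 Kupffer cell and macrophage markers 0 were past the threshold, and their summed level ran from 3540 to 9180 normalized counts in the Cyp7a1-labelled livers and from 4234 to 7469 in Control livers. Of 6 adipocyte markers 2 were in the table, Cfd and Adrb3, with sums of 1193 to 2797 and 949 to 5152. Adipoq, Lep, Retn and Plin1 were not among its rows, which does not show that their mRNA was absent. Stellate cell, sinusoidal endothelial and cholangiocyte markers, 7, 6 and 5 in the table, also had 0 past the threshold. Of all genes 6.12% were past it, so counts of 0 in lists this short say little about cell composition. The part of any cell type in the lipin result was not tested.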

How the data were processed

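Liver mRNA was sequenced in 8 Cyp7a1-labelled and 8 Control libraries. Per the labels' protocols, RNA came from frozen tissue and libraries from a KAPA kit. The deposited values are a signal, normalized counts per gene. The submitters' processing notes name mm10 and, without their roles, STAR 2.7.11a, Trim Galore 0.6.10, Subread 3.6.3, featureCounts, R 3.6.3 and DESeq2. Annotation and strand setting: not given in the sources used here.

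Values were whole multiples of a per-library step, and dividing by it gave whole reads (within 0.05) for 99.9% or more of values in each library. In 6 libraries the smallest value above 0 was 1 read, while in the other 10 it was more than 1 read, so the step there was inferred from all low values and the read numbers are less directly supported. These reads served edgeR 4.0.16 and DESeq2 1.42.0 as alternatives, and neither was the main result. The main test was limma 3.58.1 (trend) in R 4.3.3 on log2(value + 1), a scale that understates the change of low genes, two-sided, with Benjamini-Hochberg adjustment and a threshold of 0.05. A minimum mean of 10 removed no gene. One gene with a text cell was left out, leaving 12617, and all 9 members passed. The script was checked on simulated data. Coordinates are GENCODE M21 on GRCm38, and 7 members had a RefSeq promoter entry.

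The members, lists and tests were chosen with earlier results of these data known. Named genes are the members, up to 3 genes per list with the smallest p past the threshold (2 where none passed), the regulators Srebf1 and Mlxipl, Cyp7a1 and the 3 genes most like each called member. Genes named beyond that rule (Lpin3, Gpat3, Gpat4, Ctdnep1, Cnep1r1, Scap, Insig2, Egfl7 and, as the genes most like Pnpla3, Pklr, Chrna4 and Acss2) were added after their values were seen. Each library was left out in turn, and further alternatives changed the scaling (quantile normalization, equal totals), the weights of libraries, the test (edgeR, DESeq2), the pseudocount (8) and the minimum mean (none, 50).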

Additional observations from a re-analysis of the deposited data

Results flagged for a closer look

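Dgat2 in Control livers held 1 library away from the rest. Control 13 had 13038 normalized counts, and its gap to the next library was 0.585 of the group's whole range on the log2 scale, above Dixon's critical value for 8 libraries. Of 24 groups examined 1 was singled out in this way, where chance gives about 1.2. Without Control 13 the log2 fold change of Dgat2 was -0.12, with an adjusted p of 0.390 (limma), so it stayed within the spread.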

How the results depend on the processing

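No paired analysis was possible because the groups share no replicate number. Lpin2 kept its call and the direction of its rise under every alternative, and Lpin1 kept its direction under every alternative and its call under all but those that left out libraries. Leaving out 1 library gave 1 to 2 members higher and 0 to 1 lower. Over the whole table it gave 230 to 399 genes higher and 245 to 414 lower, fewest without Cyp7a1 28 (230 and 245), and 256 lower without Control 16. Quantile normalization made 1 member lower, Agpat2. Control 20 and Cyp7a1 24 had the lowest array weights, a choice made after the data were seen. Leaving them out together left 1 member higher, with Lpin1 at an adjusted p of 0.0510 (limma), and 383 genes higher and 331 lower. Leaving out 1 library moved the ratio differences to 0.453 to 0.701 for Lpin1 over Lpin2, 0.304 to 0.466 for Gpam over Agpat2 and -0.19 to -0.13 for Dgat2 over Dgat1. The log2 fold change of Mogat1 was -0.082 with array weights, -0.032 in edgeR, -0.030 in DESeq2, -0.13 without Control 20 and Cyp7a1 24, and -0.066 to 0.16 leaving out 1 library; that of Agpat3 was -0.060 to 0.0080. Pearson's r with Mlxipl in Control livers was -0.11 for Lpin1 with equal totals and 0.36 for Lpin2 without the 2 farthest libraries. Leaving out those 2 turned the sign of r in 10 of the 36 relations of the members, so they rest on few libraries. The widest turns were with Srebf1, to 0.86 from -0.22 for Gpam in Cyp7a1-labelled livers, and to 0.13 from -0.78 for Agpat3 and 0.29 from -0.44 for Dgat1 in Control livers. The cause of these turns was not tested. Of the members' fold changes under all alternatives, 203 kept their direction and side of the threshold, 11 lost the call, 2 gained it and 9 changed sign. Counting depth limits Mogat1 and Pnpla3, at 33 to 201 and 7 to 108 reads.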

Other observations

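Pnpla3 was singled out after its values were seen, because its level spread so widely within both groups. The genes that followed it most closely within groups (Pearson's r over 16 libraries after centring on group means) were Pklr (0.96), liver pyruvate kinase, Chrna4 (0.95) and Acss2 (0.94), which makes acetyl-CoA from acetate. Spearman's rho was lower, at 0.85, 0.87 and 0.86 in that order. The lowest Pnpla3 levels rest on about 7 reads in Cyp7a1 36 and about 11 in Control 16. Acss2 averaged 6612 ± 1917 normalized counts in the Cyp7a1-labelled livers and 3392 ± 920 in Control livers (SD, n = 8 each), a log2 fold change of 0.94 ± 0.21 with an adjusted p of 0.0129 (limma). Pklr averaged 14200 ± 2743 and 13441 ± 2270, a log2 fold change of 0.07 ± 0.13 with an adjusted p of 0.832 (limma), and Pnpla3 itself missed the threshold. These are the highest correlations of a search over the table, and they are descriptions.

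Among the members, the pair of highest Pearson's r within groups was Lpin1 and Lpin2 at 0.72 (16 libraries). Agpat3 and Dgat1 followed at 0.69 and Gpam and Pnpla3 at 0.61. The order depended on the measure. By Spearman's rho Agpat2 and Dgat2 came first at 0.662, then Agpat3 and Dgat1 at 0.659 and Lpin1 and Lpin2 at 0.650. Agpat2 and Dgat2 had r of 0.89 within the Cyp7a1-labelled livers and -0.11 within Control livers, and whether these differ was not tested.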
